A study of Mus musculus with 6 samples.

Results

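The cytosolic ribosomal proteins are the protein subunits of the ribosome outside mitochondria. Their genes were taken as the symbols Rpsa, Rplp0, Rplp1 and Rplp2, and Rpl or Rps followed by digits and at most a single letter a, l, x or y, with annotated pseudogenes (Rps4l and Rpl6l) left out. The arrays carried probes for 81 such genes, of 20659 named genes in all. A total of 78 genes (47 of the large subunit, 31 of the small subunit) were measured, of 12785 measured in all. Measured means that a probe was well above background on all arrays of at least 1 genotype. All 78 were in fact well above background on all 6 arrays, so none entered through 1 genotype alone. The remaining 3 were Rpl3l, Rpl10l and Rpl39l, forms made in few tissues. Rpl3l was above background on no array, and Rpl10l and Rpl39l on no knock-in array and 1 wild type array.

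RNA came from lenses of mice aged 3 months and was hybridised to single-colour Agilent arrays, 3 per genotype. The knock-in mice carried the substitution W151C, tryptophan to cysteine at codon 151 of the lens protein βB2-crystallin, introduced into Crybb2 by CRISPR/Cas9 (arrays numbered 1, 2 and 4). Wild type controls gave arrays 1, 2 and 3. Zygosity, strain, the number of founder lines and the number of animals per array are not given in the labels, so n counts arrays. The p-values set the difference between genotypes against the spread among arrays of a genotype, and that spread may be only technical variation.

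The ribosome reads messenger RNA on its small subunit and joins amino acids on its large subunit. Ribosomal proteins hold the ribosomal RNA in shape and line the paths of the message and of the new chain. Most of their transcripts start with a run of pyrimidines, the terminal oligopyrimidine or TOP start, through which mTOR signalling and the RNA-binding protein LARP1 govern their translation and stability together. In the lens, epithelial cells give rise to new fibre cells, and mature fibres lose their nuclei and organelles and end synthesis.

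RefSeq promoter sequences (build GRCm38.p6) were at hand for 58 of the 78 genes, in 69 windows of 250 bases before to 50 bases after the annotated start. The stretch from 60 bases before to 20 bases after the start is printed for genes with some of the largest falls (Rpl28, Rpl37a, Rpl18, Rps18), for Rps6, for the single rise (Rps27l) and for a gene with a difference near 0 (Rps25). Capitals mark a TOP-like run, at least 5 C or T in a row led by a C that lies within 10 bases of the annotated start; letters before that stretch were not searched, so C or T may also stand directly before a marked run.
Rpl28 (chr7:4792905-4792984, plus strand): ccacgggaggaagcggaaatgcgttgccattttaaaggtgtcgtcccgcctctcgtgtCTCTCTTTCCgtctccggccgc
Rpl37a (chr1:72711200-72711279, plus strand): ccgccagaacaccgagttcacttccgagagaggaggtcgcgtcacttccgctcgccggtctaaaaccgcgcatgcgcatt
Rpl18 (chr7:45718011-45718090, plus strand): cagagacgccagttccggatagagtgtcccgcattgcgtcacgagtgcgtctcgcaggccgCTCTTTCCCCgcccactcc
Rps18 (chr17:33955646-33955725, minus strand): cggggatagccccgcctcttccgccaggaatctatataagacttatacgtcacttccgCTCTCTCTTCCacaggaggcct
Rps6 (chr4:86857348-86857427, minus strand): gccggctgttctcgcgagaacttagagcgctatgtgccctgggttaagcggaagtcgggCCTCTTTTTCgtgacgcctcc
Rps27l (chr9:66946026-66946105, plus strand): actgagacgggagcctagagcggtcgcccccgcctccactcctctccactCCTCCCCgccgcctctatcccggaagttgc
Rps25 (chr9:44407654-44407733, plus strand): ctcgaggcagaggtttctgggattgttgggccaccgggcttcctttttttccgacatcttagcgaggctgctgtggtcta

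The run was 10 bases long in Rpl28, Rpl18 and Rps6, 11 in Rps18 and 7 in Rps27l, and these letters were not found at the required place in Rpl37a and Rps25. The run of Rps27l goes on for 2 more bases before the searched stretch, so it begins farther upstream than the capitals show. A TOP-like start was found in 55.1% of the ribosomal protein windows and in 29.7% of all 32851 windows. The letters CCGGAAG, read by ETS factors such as GABPA, were on either strand of 36.2% of ribosomal protein windows and 8.86% of all windows. Shares for the other motifs, searched on both strands, were 92.8% and 71.4% for the ETS core GGAAG (which CCGGAAG contains), 59.4% and 35.7% for the SP1 core GGGCGG, and 29.0% and 8.93% for the YY1 core ATGGCG. They were 11.6% and 7.15% for the E-box CACGTG and 10.1% and 13.6% for the TATA box TATAAA. A TOP-like start was present in 11 of the 14 genes with a window that fell in the knock-in lenses and in 25 of the 44 other genes with a window.

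Nearly all ribosomal protein transcripts had a lower mean signal in the knock-in lenses. Of the 78 genes, 20 fell (25.6%), 1 rose and 57 did not pass the test, at an adjusted p under 0.05 in limma over all 12785 genes. Over all genes tested, 12.6% were called lower and 13.3% higher. The mean was lower in the knock-in lenses for 75 of 78 genes, against 52.6% of all genes. The median log2 difference (knock-in minus wild type) was -0.52 over the 78 genes and -0.04 over all genes, and single genes ranged from -1.26 for Rpl28 to 0.78 for Rps27l. All knock-in arrays lay below all wild type arrays for 44 of the 78 genes (56.4%), against 23.1% of all genes. Of the genes that did not pass, 55 of 57 had a negative difference, and their values ran from -0.79 (Rps3) to 0.08 (Rpl35a). Of the 20 that fell, 6 were called whichever array was left out and 14 lost the call in at least 1 such fit (adjusted p up to 0.16, for Rpl30). The number lower was 6 without knock-in array 2 (5.81% of all genes), 9 without knock-in array 4 (8.83%), 8 without wild type array 1 (6.23%) or array 2 (6.94%), and 51 without wild type array 3 (24.4%). At the threshold, Rpl30 (adjusted p = 0.0481) was just inside and Rps3 (adjusted p = 0.0505) just outside.

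**Figure D1:**
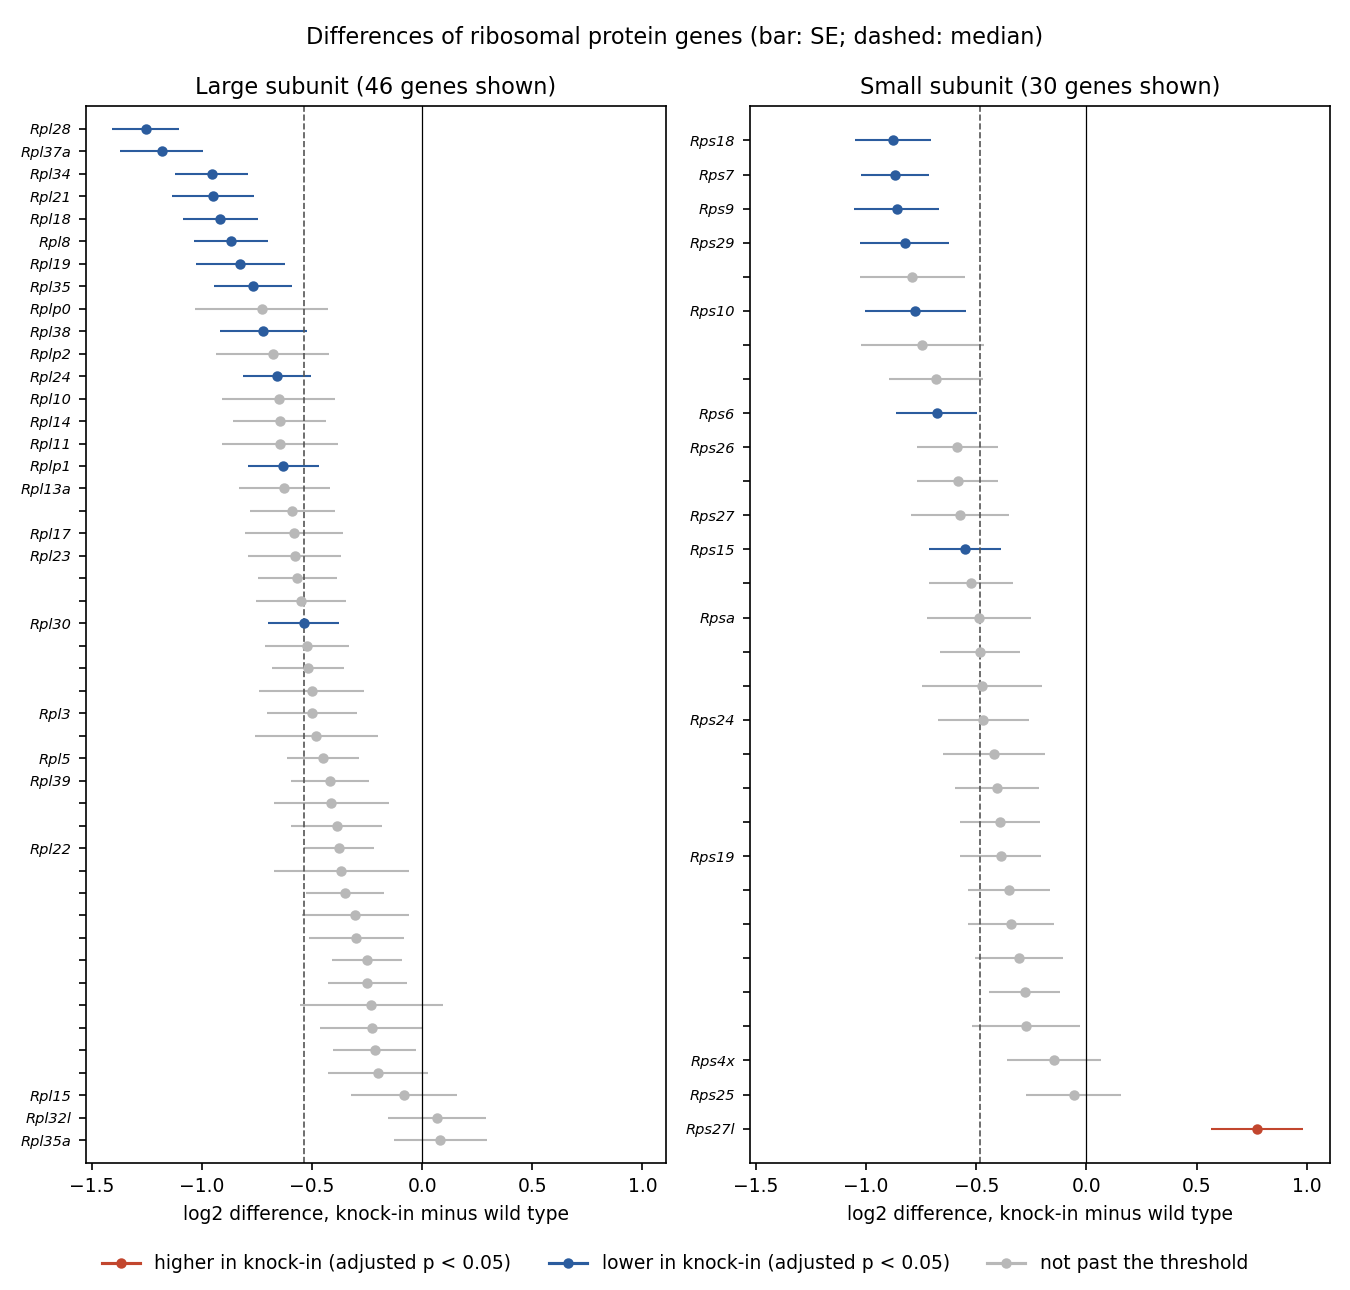
Log2 difference (knock-in minus wild type) with its standard error for 76 of the 78 ribosomal protein genes, large subunit on the left and small subunit on the right; colours mark genes lower or higher at an adjusted p under 0.05 (limma) and dashed lines the median of each subunit over all its genes, and labels name genes chosen by the naming rule. Of the 76 points 73 lie left of 0, Rpl28 lies farthest left at -1.26, and Rps27l alone passes the test on the right at 0.78.

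The probes of these genes were among the brightest on the arrays, at or above the 94.7th percentile of the measured genes' mean signal. Brightness and scaling therefore bear on all of the results. The other 599 genes with probes at least as bright as the dimmest of the ribosomal protein genes had a median difference of -0.15. Among them 120 were called lower (20%) and 51 higher, and 59.3% had a lower mean. Quantile normalization, which gives every array the same spread of signals, left 8 of the 78 genes lower and 1 higher (12.8% and 14.9% of all genes), with a median difference of -0.21 and a lower mean for 58. All 20 genes that fell kept a lower mean after it.

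On the 75th-percentile scale, the median signal of the 78 genes was 6.98, 6.73 and 6.50 for the knock-in (arrays 1, 2 and 4 in turn), against 7.27, 7.32 and 7.05 for the wild type (arrays 1, 2 and 3). Each value is a log2 signal relative to the 75th percentile of its array. The genotypes did not overlap in this median. The knock-in arrays kept the same order for most genes: knock-in array 4 was the lowest knock-in array for 76 of 78 genes and knock-in array 1 the highest for 73. Wild type array 3 did not move the genes as a block, with 55 below and 17 above both other wild type arrays. After quantile normalization the medians were 14.73, 14.61 and 14.52 on the knock-in arrays, against 14.67, 14.64 and 14.88 on the wild type arrays, and there the genotypes overlapped.

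**Figure D2:**
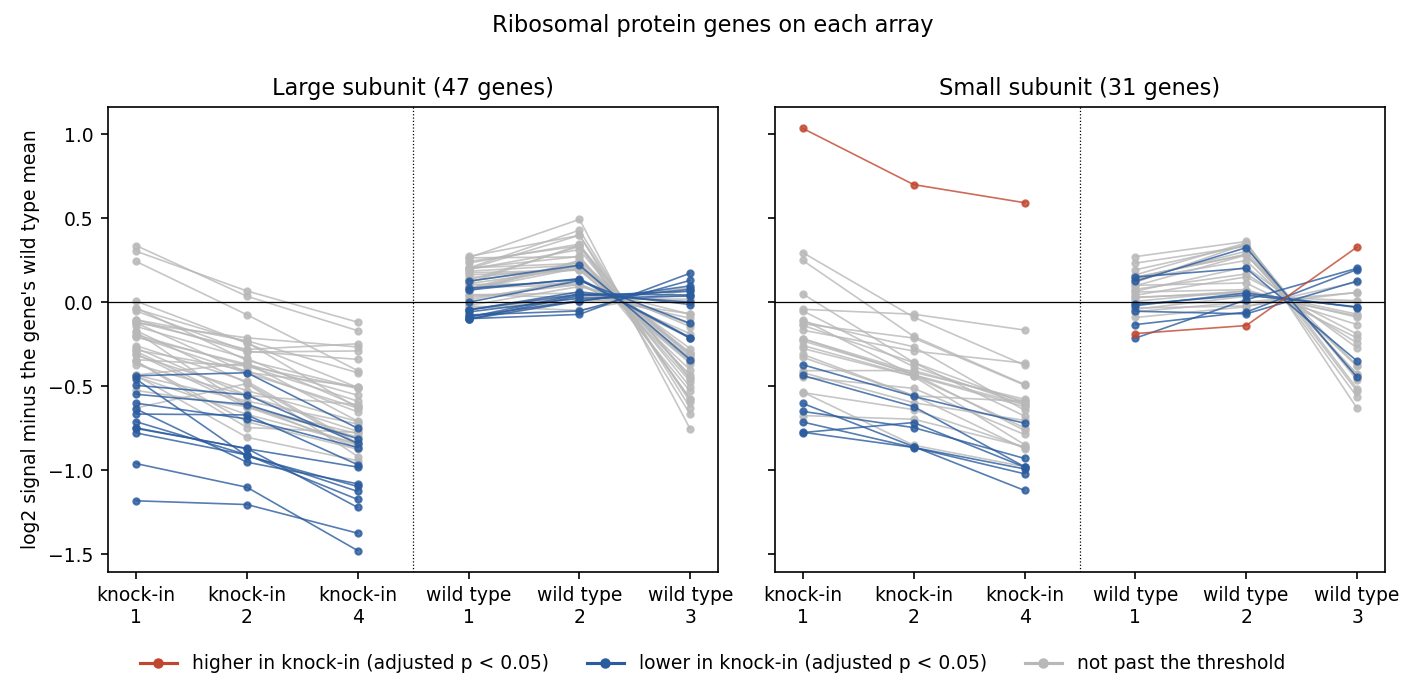
Log2 signal of each ribosomal protein gene on each array, minus the gene's wild type mean, with knock-in arrays 1, 2 and 4 left of wild type arrays 1, 2 and 3; each line is 1 gene and colours mark its call. Knock-in array 4 is lowest of the knock-in arrays for 76 of 78 genes, and wild type array 3 spreads the genes, with 55 below and 17 above both other wild type arrays.

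The file headers give the arrays as scanned at 3 times: the 3 knock-in arrays together, wild type arrays 1 and 2 together on the same day, and wild type array 3 on another day. Arrays scanned together are taken here as a slide, and since no slide holds both genotypes, the effects of slide and genotype cannot be told apart. Wild type array 3 also stood apart in brightness, with a 75th percentile of 698.4 intensity units, against 167.4 to 200.9 on the knock-in arrays and 120 to 142.2 on wild type arrays 1 and 2. Wild type arrays 1 and 2 lay above every knock-in array for 71 of 78 genes, while wild type array 3 lay at or below the highest knock-in array for 34. These counts were not made over all measured genes, so whether they are particular to ribosomal protein genes is not known.

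Wild type array 3 differed from the other wild type arrays by signal. For the 39 ribosomal protein genes with the brighter probes its median difference from the mean of wild type arrays 1 and 2 was -0.64, and for the 39 with the dimmer probes 0.01. Across the 78 genes, which share these arrays, this difference correlated with the signal on wild type arrays 1 and 2 at r = -0.88. That signal enters both sides of the correlation, and it also split the brighter from the dimmer genes, so these values are not independent. Of the brighter 39 genes 6 were called lower and of the dimmer 39 genes 14, although their median differences were alike at -0.50 and -0.52. Within the shared scan day, where wild type arrays 1 and 2 are the only controls, 51 of 78 genes were lower and 1 higher. The median difference there was -0.63, and 24.0% of all genes were called lower and 19.6% higher. All 20 genes of the comparison over 6 arrays were among the 51, which held 30 of the brighter and 21 of the dimmer genes. The arrays that split the genes by brightness are also the controls here, so these 2 counts cannot show an effect of brightness. With slide as a random block, 1 gene (Rpl28) was called lower, against 2.02% of all genes.

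**Figure D3:**
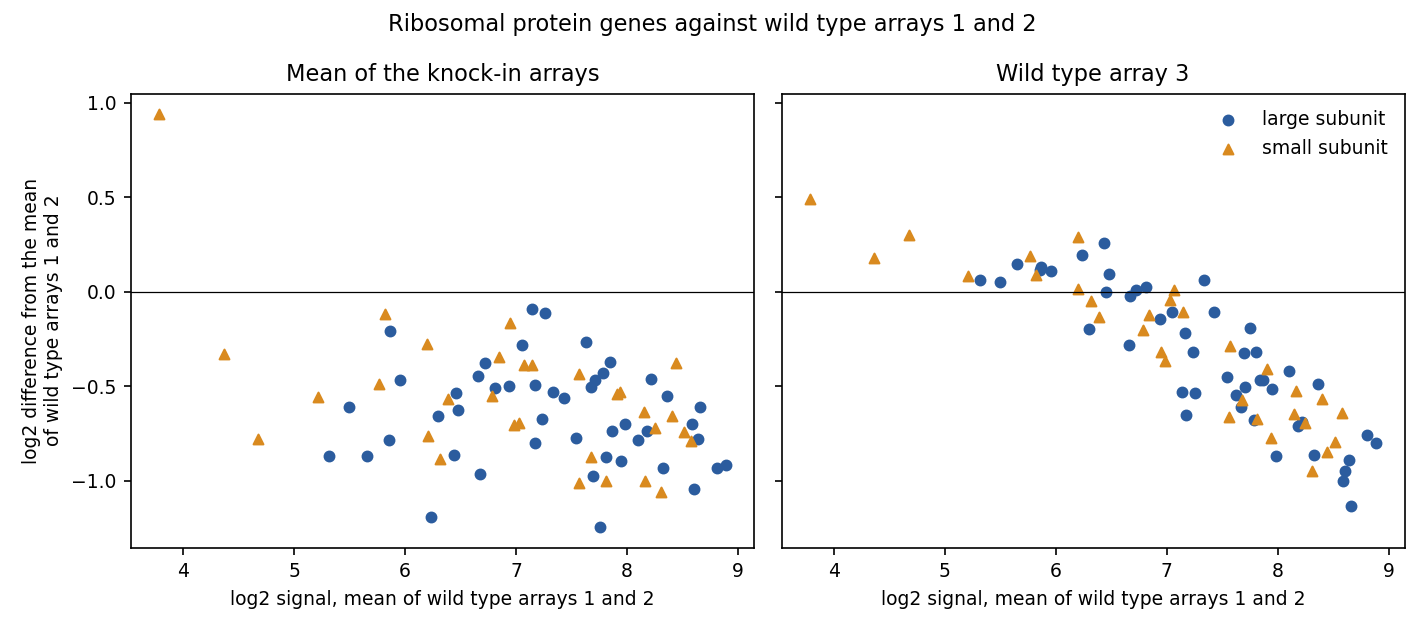
Log2 difference from the mean of wild type arrays 1 and 2 against that mean, for the 78 ribosomal protein genes, with the mean of the 3 knock-in arrays on the left and wild type array 3 on the right; circles are large and triangles small subunit genes. The knock-in arrays lie below 0 across the range for all genes but Rps27l, and wild type array 3 slopes downward with signal (r = -0.88).

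Lens identity was plain on every array: all 14 lens fibre markers on the arrays were well above background throughout. Of these 14 markers 8 were called lower in the knock-in lenses, against 12.6% of all genes. Their median difference was -0.91, and their part in the ribosomal protein result was not tested. Their summed linear signal was 1470 to 1560 times the 75th percentile on the knock-in arrays, against 3910 and 4630 times on wild type arrays 1 and 2 and 1480 times on wild type array 3. In bulk lens RNA, fewer cells of a type and less RNA per cell cannot be told apart. Knock-in array 4, the lowest for ribosomal proteins, also carried retinal transcripts. The summed linear signal of the 6 retina markers was 62.5 times the 75th percentile on that array, 1.68 and 2.70 times on knock-in arrays 1 and 2, and 0.39 to 0.50 times on the wild type arrays. Without that array 9 genes were called lower, as given above, and the median difference of the 78 genes was -0.41. Of 4 measured vessel and fibroblast markers 2 were called higher, the collagens Col1a1 and Col1a2, against 13.3% of all genes. The median difference was 1.32. The vessel markers Pecam1 and Kdr were not called. Pecam1 had log2 signals of -1.96, -1.75 and -1.68 on the knock-in arrays, against -1.09, -0.89 and -2.17 on the wild type arrays. Kdr had 0.23, -0.01 and -0.17, against 0.74, 1.07 and 0.05. Within the shared scan day 2 of the 4 were called higher and 2 lower (19.6% and 24.0% of all genes). The summed linear signal of the 7 on the arrays was 6.13 to 15.6 times the 75th percentile on the knock-in arrays, against 1.59 to 3.74 times on the wild type arrays. Leukocyte markers did not move together: of 8 measured, 2 were called higher and 1 lower (13.3% and 12.6% of all genes), with a median difference of 0.24. Their sum was 10.3 to 19.4 times on the knock-in arrays, against 39.0 and 41.8 times on wild type arrays 1 and 2 and 13.3 times on wild type array 3. Itgam was the brightest of them on every array. It had log2 signals of 3.33, 2.60 and 2.97 on the knock-in arrays, against 5.12, 5.21 and 3.51 on the wild type arrays. Tyrobp, C1qa and C1qc had higher means in the knock-in lenses. They were well above background on 3 knock-in arrays each, and on 0, 1 and 1 wild type arrays in turn. These genes counted as measured only through the knock-in arrays. The counts and the median of 0.24 therefore include genes that the filter let in where they were high. The part of these cells in the ribosomal protein result was not tested.

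In the large subunit 13 of 47 genes fell (27.7%, against 12.6% of all genes) and the median difference was -0.54. None rose in limma, at an unadjusted p under 0.05 either. Rpl28, a protein of eukaryotic ribosomes with no bacterial counterpart, had log2 signals of 5.12, 5.09 and 4.92 on the knock-in arrays (1, 2 and 4 in turn), against 6.22, 6.25 and 6.43 on the wild type arrays (1, 2 and 3). The genotypes were far apart and each was tight. The mean of 5.04 ± 0.11 in knock-in lenses stood against 6.30 ± 0.11 in wild type lenses (SD, n = 3 arrays each), a difference of -1.26 (SE 0.15, limma adjusted p = 0.00189), or 0.419 times the wild type signal. Rpl28 was the only ribosomal protein gene called under all 18 alternative settings, and its adjusted p was 0.0353 when slide was fitted as a random block.

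Rpl37a, a small zinc-binding protein, had log2 signals of 6.73, 6.59 and 6.21 on the knock-in arrays, against 7.69, 7.82 and 7.56 on the wild type arrays. It fell by 1.18 (SE 0.19, limma adjusted p = 0.00557). Knock-in array 4 was the lowest, and no knock-in array reached the wild type range. Rpl34 had 5.88, 5.75 and 5.49 on the knock-in arrays, against 6.62, 6.72 and 6.65 on the wild type arrays, and fell by 0.96 (SE 0.16, adjusted p = 0.00738). Rpl18 had 4.99, 4.79 and 4.57 on the knock-in arrays, against 5.60, 5.71 and 5.80 on the wild type arrays, and fell by 0.92 (SE 0.17, adjusted p = 0.00946). Rpl21 had 5.77, 5.65 and 5.30 on the knock-in arrays, against 6.42, 6.45 and 6.69 on the wild type arrays, and fell by 0.95 (SE 0.19, adjusted p = 0.0115). In all of these genes the genotypes were separate and knock-in array 4 was the lowest. With Rps7 of the small subunit, Rpl28, Rpl37a, Rpl34, Rpl18 and Rpl21 were the 6 genes called whichever array was left out.

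Near the peptidyl transferase centre, where amino acids are joined, 1 of 3 genes fell, against 25.6% of the 78 and 12.6% of all genes. The gene that fell was Rpl8, a protein kept from bacteria to mammals, with log2 signals of 6.84, 6.72 and 6.61 on the knock-in arrays, against 7.67, 7.72 and 7.37 on the wild type arrays (difference -0.87, SE 0.17, adjusted p = 0.0111). Its partners there were Rpl10, which completes the maturing subunit, and Rpl3. Rpl10 had 8.18, 7.95 and 7.78 on the knock-in arrays, against 8.89, 8.89 and 8.09 on the wild type arrays (-0.65, SE 0.26, adjusted p = 0.107). Here wild type array 3 lay inside the knock-in range. Rpl3 differed by -0.50 (SE 0.20, adjusted p = 0.115) without overlap.

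Around the tunnel through which the new chain leaves, 2 of 8 genes fell, against 25.6% of the 78 and 12.6% of all genes. All 8 had a lower mean, as did 75 of the 78. Rpl35, at the tunnel exit, had log2 signals of 7.03, 7.03 and 6.73 on the knock-in arrays, against 7.77, 7.84 and 7.49 on the wild type arrays (-0.77, SE 0.18, adjusted p = 0.020). Rpl19, which reaches across to the small subunit by a long helix, had 5.44, 4.98 and 4.80 on the knock-in arrays, against 5.81, 5.91 and 5.97 on the wild type arrays (-0.82, SE 0.20, adjusted p = 0.0251). For both genes the arrays of the genotypes did not overlap. The remaining 6 tunnel genes (Rpl4, Rpl17, Rpl23a, Rpl26, Rpl31, Rpl39) did not pass, and of the 8 genes 7 had separate genotypes.

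In the P stalk, the flexible arm that recruits translation factors, 1 of 4 genes fell, against 25.6% of the 78 and 12.6% of all genes. Rplp1 had log2 signals of 5.02, 4.96 and 4.67 on the knock-in arrays, against 5.46, 5.54 and 5.55 on the wild type arrays (-0.63, SE 0.16, adjusted p = 0.0291). Its partner in the stalk, Rplp2, had 7.92, 8.07 and 7.63 on the knock-in arrays, against 8.75, 8.87 and 8.05 on the wild type arrays (-0.68, SE 0.26, adjusted p = 0.0937). The stalk base Rplp0 had 7.85, 7.49 and 7.35 on the knock-in arrays, against 8.49, 8.72 and 7.66 on the wild type arrays (-0.73, SE 0.30, adjusted p = 0.119). In both Rplp2 and Rplp0 wild type array 3 was the lowest wild type array, and within the scan day they differed by -0.93 (Rplp2, adjusted p = 0.00699) and -1.04 (Rplp0, adjusted p = 0.00722). Rpl12, which binds beside the stalk base, had a smaller difference of -0.35 (SE 0.18, adjusted p = 0.189), and within the scan day -0.44 (adjusted p = 0.0646).

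Other large subunit genes that fell were Rpl24 (-0.66, SE 0.15, adjusted p = 0.0221), Rpl38 (-0.72, SE 0.20, adjusted p = 0.0372) and Rpl30 (-0.54, SE 0.16, adjusted p = 0.0481). Rpl24 and Rpl38 are the genes of classical mouse mutants, Belly spot and tail and Tail short. Rpl38 had log2 signals of 7.17, 7.08 and 6.91 on the knock-in arrays, against 7.90, 8.0 and 7.43 on the wild type arrays. Rpl24 had 5.96, 5.90 and 5.70 on the knock-in arrays, against 6.41, 6.55 and 6.57 on the wild type arrays. In all 3 genes the genotypes were separate.

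Free Rpl5, Rpl11 and Rpl23 bind the p53 inhibitor MDM2 when ribosome assembly fails. None of the 3 passed the test over 6 arrays. Rpl5 had log2 signals of 6.60, 6.48 and 6.23 on the knock-in arrays, against 6.93, 6.94 and 6.79 on the wild type arrays (-0.45, SE 0.16, adjusted p = 0.0863). Rpl11 had 7.51, 7.41 and 7.25 on the knock-in arrays, against 8.28, 8.37 and 7.46 on the wild type arrays (-0.64, SE 0.26, adjusted p = 0.116). Rpl23 had 7.40, 7.08 and 6.90 on the knock-in arrays, against 7.82, 7.91 and 7.40 on the wild type arrays (-0.58, SE 0.21, adjusted p = 0.0868). Wild type array 3 met the knock-in range for Rpl11 and Rpl23 and not for Rpl5. Within the scan day all 3 were lower, by 0.50 (Rpl5, adjusted p = 0.0428), 0.93 (Rpl11, adjusted p = 0.00366) and 0.73 (Rpl23, adjusted p = 0.0195) on the log2 scale.

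In the small subunit 7 of 31 genes fell (22.6%, against 12.6% of all genes), 1 rose and the median difference was -0.48. Rps7, a gene of Diamond-Blackfan anaemia in humans, had log2 signals of 5.58, 5.43 and 5.28 on the knock-in arrays, against 6.28, 6.35 and 6.27 on the wild type arrays. It fell by 0.87 (SE 0.15, limma adjusted p = 0.00810), and the genotypes were well apart. The disease is a failure of red cell formation through loss of a ribosomal protein copy. Of 9 measured genes listed here for it, 2 fell (Rps7 and Rps10), or 22.2%, against 12.6% of all genes. The list is not complete, and the count depends on the genes it holds. Rps19, the first gene known for it, had 4.32, 3.99 and 3.80 on the knock-in arrays, against 4.33, 4.40 and 4.54 on the wild type arrays (-0.39, SE 0.18, adjusted p = 0.164). Rps24 differed by -0.47 (SE 0.21, adjusted p = 0.138) and Rps26 by -0.59 (SE 0.18, adjusted p = 0.055).

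In the head of the small subunit, the lobe that swivels as the message moves, 4 of 14 genes fell (28.6%). Of the 78 genes 25.6% fell and of all genes 12.6%. All 14 had a lower mean, as did 75 of the 78. Rps18 had log2 signals of 4.00, 3.91 and 3.78 on the knock-in arrays, against 4.56, 4.79 and 4.98 on the wild type arrays (-0.88, SE 0.17, adjusted p = 0.0114). Rps29, a small zinc-binding protein, had 7.21, 7.27 and 7.0 on the knock-in arrays, against 8.14, 8.19 and 7.64 on the wild type arrays (-0.83, SE 0.20, adjusted p = 0.0245). Rps10, which is marked with ubiquitin when ribosomes collide, had 6.93, 6.84 and 6.65 on the knock-in arrays, against 7.71, 7.91 and 7.14 on the wild type arrays (-0.78, SE 0.23, adjusted p = 0.0468). Wild type array 3 was the highest wild type array for Rps18 and the lowest for Rps29 and Rps10. Rps15 fell by 0.55 (SE 0.16, adjusted p = 0.0468).

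Rps9, at the entry of the message channel, had log2 signals of 5.70, 5.44 and 5.18 on the knock-in arrays, against 6.16, 6.24 and 6.49 on the wild type arrays (-0.86, SE 0.19, adjusted p = 0.0183). Its neighbours Rps3 and Rps2 differed by -0.79 (SE 0.24, adjusted p = 0.0505) and -0.52 (SE 0.19, adjusted p = 0.0865), and all 3 had separate genotypes. Rps6, which S6 kinase phosphorylates downstream of mTOR, had 6.58, 6.39 and 6.03 on the knock-in arrays, against 7.0, 7.05 and 6.98 on the wild type arrays (-0.68, SE 0.18, adjusted p = 0.0346). At the platform, where the message leaves, 0 of 4 genes (Rpsa, Rps14, Rps26, Rps28) passed limma's test, with adjusted p from 0.055 to 0.172. At an unadjusted p under 0.05 2 of them were lower, and all 4 had a lower mean, as did 75 of the 78.

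Rps27l was the only ribosomal protein gene that rose. It encodes a close relative of Rps27 and is a p53 target. Its log2 signals were 4.98, 4.65 and 4.54 on the knock-in arrays, against 3.76, 3.81 and 4.27 on the wild type arrays. Wild type array 3 lay nearest to the knock-in arrays, and the genotypes were separate. The difference was 0.78 (SE 0.21, limma adjusted p = 0.0355), or 1.71 times the wild type signal. Within the scan day it was 0.94 (adjusted p = 0.00696), after quantile normalization 0.97 (adjusted p = 0.0150), and 0.72 (adjusted p = 0.284) when slide was a random block. Leaving out any array but wild type array 3 ended the call, with an adjusted p of up to 0.134. Rps27 itself had 7.94, 7.76 and 7.66 on the knock-in arrays, against 8.51, 8.64 and 7.93 on the wild type arrays (-0.57, SE 0.22, adjusted p = 0.101).

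Differences near 0 were those of Rps25 (-0.06, SE 0.22, adjusted p = 0.871), Rpl32l (0.07, SE 0.22, adjusted p = 0.850), Rpl15 (-0.08, SE 0.24, adjusted p = 0.833) and Rpl35a (0.08, SE 0.21, adjusted p = 0.803). Rps4x, the X-linked form of its protein, differed by -0.15 (SE 0.21, adjusted p = 0.643). Rpl39, a very small tunnel protein, differed by -0.42 (SE 0.18, adjusted p = 0.125). For Rpl32l and Rpl35a, whose means were higher in the knock-in lenses, the sign turned within the scan day, to -0.11 and -0.09. Rps4x, Rpl15 and Rps25 turned to 0.21, 0.28 and 0.33 after quantile normalization.

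Several probes were kept for 50 of the 78 genes. All probes of a gene had lower means in the knock-in lenses for 42 of these, and 150 of all 161 kept probes did. The probes disagreed in direction for Rpl13a, Rpl14, Rpl15, Rpl17, Rpl22, Rpl35a, Rps25 and Rpsa. For Rpl13a the brightest probe, which represents the gene, gave -0.62 and the other two gave 0.56 and 0.81. For Rpl14 the brighter probe gave -0.65 and the other 0.67. Probes of Rpl17 ran from -0.86 to 0.12 and those of Rps25 from -0.06 to 0.50. Ribosomal protein genes have many processed pseudogenes of near-identical sequence, and the sequences of these probes were not used here, so cross-hybridisation was not tested.

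The subunits and the evolutionary age of the proteins made little difference to the medians. Large subunit genes had a median difference 0.05 below that of small subunit genes (-0.0546), and the median of large minus small subunit signals was 0.10, 0.06 and 0.21 on the knock-in arrays, against 0.31, 0.41 and 0.09 on the wild type arrays, ranges that overlapped. The 33 genes with counterparts in bacteria had a median difference of -0.55 with 6 lower (18.2%) and 0 higher in limma (0 higher at an unadjusted p under 0.05 too). All knock-in arrays lay below all wild type arrays for 19 of them (57.6%), against 56.4% of the 78 and 23.1% of all genes. The 45 others had a median of -0.48 with 14 lower (31.1%, against 12.6% of all genes) and 1 higher. No test was made of these contrasts.

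**Figure D4:**
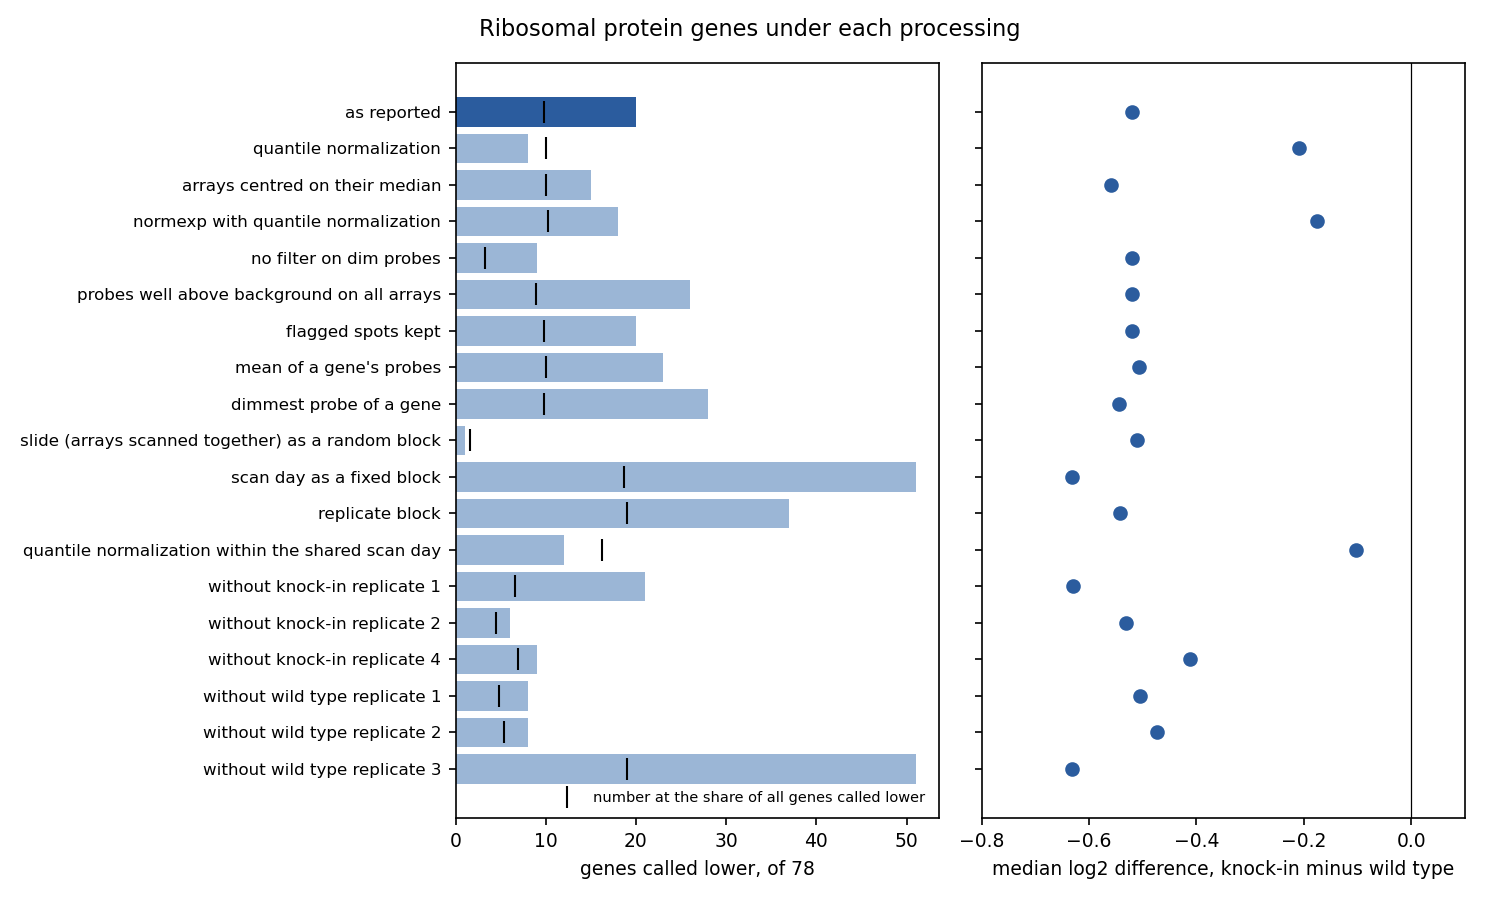
Number of the 78 ribosomal protein genes called lower (bars, left) and their median log2 difference, knock-in minus wild type (points, right), as reported and under 18 alternative settings; black ticks mark the number that the share of all genes called lower would give. The median lies below 0 in every setting, between -0.63 and -0.10, and the number called lower between 1 and 51.

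The 9 lists examined from the rest of the translation machinery held 241 measured genes, 31 of them called lower (12.9%, against 12.6% of all genes) and 42 higher (17.4%, against 13.3%). Family members that the symbol rule leaves out had 3 of 9 lower (33.3%, against 12.6% of all genes) and a median difference of -0.32. None was higher in limma (at an unadjusted p under 0.05, 4 were lower and 0 higher). Rpl22l1, a paralogue of Rpl22, had log2 signals of 3.43, 3.39 and 3.01 on the knock-in arrays, against 4.40, 4.52 and 4.49 on the wild type arrays (-1.19, SE 0.17, limma adjusted p = 0.00387). Rpl36al fell by 0.73 (SE 0.16, adjusted p = 0.0174), and Rack1, a scaffold on the small subunit, by 0.58 (SE 0.17, adjusted p = 0.0432). After quantile normalization 1 of the 9 was called lower. Host transcripts of small nucleolar RNAs that also carry a TOP start had 2 of 6 lower (33.3%, against 12.6% of all genes) and a median of -0.47. None was higher in limma (at an unadjusted p under 0.05, 5 were lower and 0 higher). Snhg12 had 3.78, 3.98 and 3.54 on the knock-in arrays, against 6.22, 6.23 and 6.23 on the wild type arrays (-2.46, SE 0.17, adjusted p = 0.000262), and Snhg6 fell by 1.02 (SE 0.15, adjusted p = 0.00373).

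Ribosome biogenesis factors, which process ribosomal RNA and assemble the subunits in the nucleolus, leaned the other way, with a median difference of 0.28. Of the 55 measured, 17 were higher (30.9%, against 13.3% of all genes), 4 lower (7.27%, against 12.6%) and 34 not called. Npm1, a nucleolar chaperone, had log2 signals of 4.53, 4.23 and 3.95 on the knock-in arrays, against 2.78, 2.69 and 2.77 on the wild type arrays (1.49, SE 0.19, limma adjusted p = 0.00218). Its 5 kept probes gave differences of 0.17 to 1.49. In each fit without a knock-in array another probe was the brightest and represented the gene, and the call was lost (adjusted p up to 0.697). Ddx21, an RNA helicase of the nucleolus, rose by 1.15 (SE 0.16, adjusted p = 0.00359), and Sbds, which helps to release Eif6 from the new large subunit, by 0.85 (SE 0.14, adjusted p = 0.00653). After quantile normalization 16 of the 55 were higher and 4 lower (14.9% and 12.8% of all genes). In RNA polymerase I, which transcribes ribosomal RNA, 3 of 14 genes were higher (21.4%, against 13.3% of all genes) and 1 lower (7.14%, against 12.6%). The lower one was Taf1d (-1.48, SE 0.21, adjusted p = 0.00340), and Znrd1 and Twistnb, polymerase subunits, rose by 1.07 (adjusted p = 0.0157) and 0.72 (adjusted p = 0.0331). The other kept probe of Twistnb gave -0.08.

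Mitochondrial ribosomal proteins, which build the separate ribosome of mitochondria, were called no more often than all genes, with 9 of 76 higher (11.8%, against 13.3%), 8 lower (10.5%, against 12.6%) and a median difference of 0.13. The smallest p-values were those of Mrps26 (-1.25, SE 0.17, limma adjusted p = 0.00311), Mrps6 (-0.92, SE 0.14, adjusted p = 0.00451) and Mrps27 (-1.29, SE 0.20, adjusted p = 0.00515). Mrps27 was well above background on 2 knock-in and 3 wild type arrays, so it passed the filter only through the wild type. It was dim, with log2 signals of -3.59, -3.03 and -3.27 on the knock-in arrays, against -2.05, -1.79 and -2.17 on the wild type arrays. Translation initiation factors had 4 of 36 higher (11.1%, against 13.3% of all genes) and 8 lower (22.2%, against 12.6%). After quantile normalization 7 were higher and 1 lower (14.9% and 12.8% of all genes). Eif1a, a scanning factor, rose by 1.30 (SE 0.16, adjusted p = 0.00218). Pabpc1, the poly(A)-binding protein and a TOP transcript, fell by 0.89 (SE 0.15, adjusted p = 0.00630), and Eif3c, an eIF3 subunit, rose by 0.86 (SE 0.14, adjusted p = 0.00682). Singled out after the values were seen, eIF3 had 7 of 13 measured subunits lower, with differences of -0.82 to -0.48, and after quantile normalization 1 of 13.

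Elongation and release factors had 3 of 14 higher (21.4%, against 13.3% of all genes) and 2 lower (14.3%, against 12.6%). The 2 lower ones were not called after quantile normalization. Abce1, which splits ribosomes, rose by 1.17 (SE 0.20, adjusted p = 0.00730). Eef1d fell by 0.86 (SE 0.18, adjusted p = 0.0154), and Gspt2, a release factor, rose by 1.09 (SE 0.23, adjusted p = 0.0158). Among genes of rescue and quality control of stalled ribosomes 2 of 11 were higher (18.2%, against 13.3% of all genes). None was lower in limma (at an unadjusted p under 0.05, 2 were higher and 0 lower) and the median was 0.07. The 2 higher genes were Tcf25 (0.81, SE 0.15, adjusted p = 0.00869) and Nemf (0.52, SE 0.15, adjusted p = 0.0470). The kept probes of Tcf25 disagreed, from -0.21 to 0.81, and without knock-in array 1 another probe represented it (-0.06, adjusted p = 0.802).

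Among 20 measured regulators of ribosome production, TOP translation and the nucleolar stress response, 4 were higher (20%) and 3 lower (15%). Of all genes 13.3% were higher and 12.6% lower. Cdkn1a, the cell cycle inhibitor p21, had no wild type array with a signal well above background. It entered the test only through the knock-in arrays, so its call, counted among the 4, rests on wild type values below background. Its knock-in signal was at least 22-fold above the wild type bound. The wild type bound averages, over arrays, the dimmest signal that counted as well above background, or the probe's own where that was higher. Eif4ebp1, which blocks cap-dependent initiation when mTOR is inactive, had log2 signals of 4.29, 4.03 and 3.57 on the knock-in arrays, against 0.98, 0.96 and 1.31 on the wild type arrays (2.88, SE 0.23, limma adjusted p = 0.000382). Max, the partner of MYC, fell by 1.23 (SE 0.17, adjusted p = 0.00342). Of the 25 called genes named from the related lists, 16 were called whichever array was left out. These include Cdkn1a, whose wild type values were below background. The other 9, Npm1, Znrd1, Twistnb, Rpl36al, Rack1, Eef1d, Gspt2, Tcf25 and Nemf, lost the call in at least 1 such fit. When slide was a random block, 2 genes over all 9 lists were called lower and 3 higher.

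**Figure D5:**
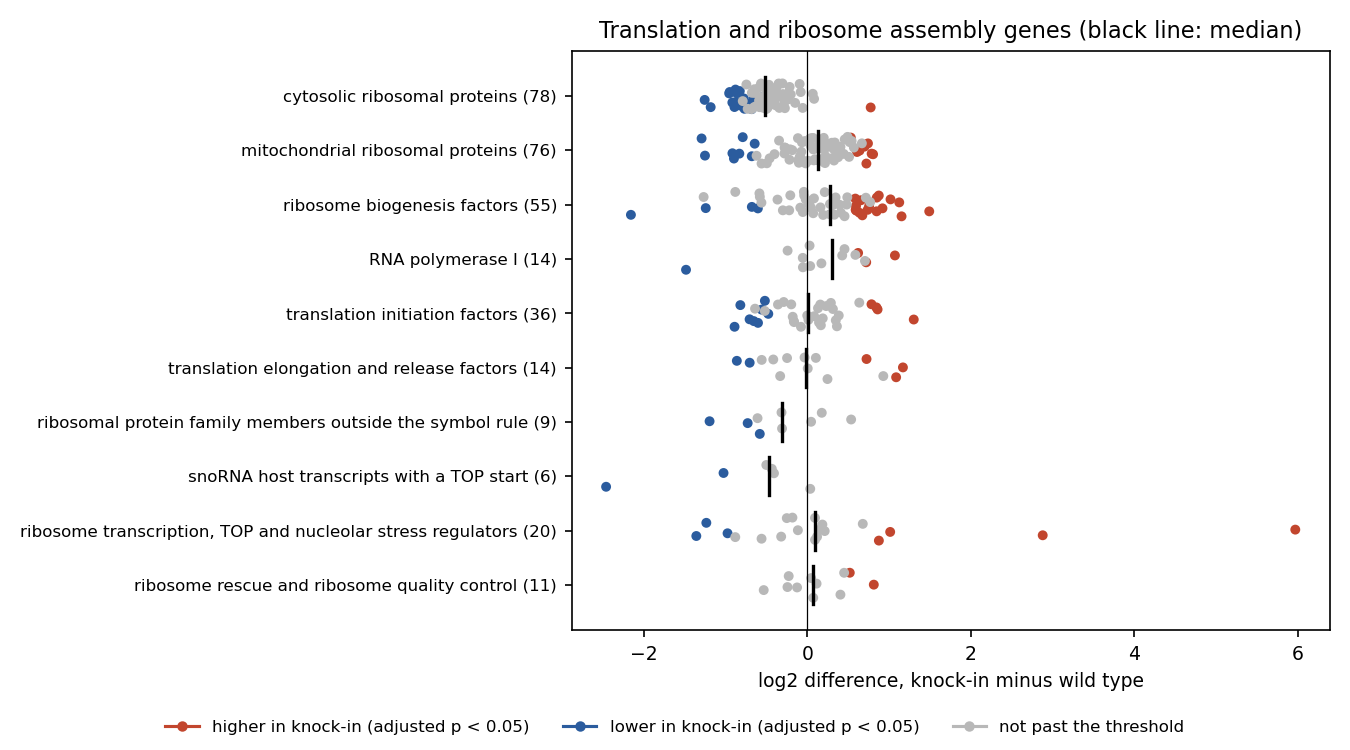
Log2 difference (knock-in minus wild type) of each measured gene of the cytosolic ribosomal proteins and of 9 related lists, with the number of measured genes in brackets; black lines are medians and colours mark calls at an adjusted p under 0.05 (limma). The median is -0.52 for the cytosolic ribosomal proteins, 0.13 for the mitochondrial ones and 0.28 for biogenesis factors; for Cdkn1a, the point farthest right, the wild type signal was below background.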

How the data were processed

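Arrays were read with Agilent Feature Extraction, version 11.0.1.1 in the file headers and 9.1 in the submitters' processing notes. Of the deposited scanner intensities, the processed (background-subtracted) signal of each spot was used, and the median spot and background intensities in an alternative (normexp, offset 50). Signals were taken to log2 and expressed relative to the 75th percentile of the array (43020 non-control spots). Outlier spots were dropped and spots of a probe averaged. A probe counted as above background where 50% or more of its spots did, and stayed if all arrays of a genotype met this. Accessions in the files were turned into symbols through RefSeq tables (GRCm38.p6), and the brightest probe stood for its gene. The fit was limma 3.58.1 (R 4.3.3; lmFit, eBayes), knock-in minus wild type, on 12785 genes together with Benjamini-Hochberg adjustment, leaving 4 residual degrees of freedom. With 3 arrays a side, exact permutation stops at p = 0.1, and the number of arrays limits precision. The share of spots above background ran from 45.5% to 58.4%, and 0 were saturated. Alternatives covered scaling, background, filters, probe choice, blocks and leaving out each array.

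The genes and lists were chosen with earlier results of these data known. Named genes are those past the threshold, the largest differences, genes of known roles and duplicated forms, and up to 3 per related list by smallest p. Some genes that this rule takes are counted but not reported here by name. Wild type arrays 1 and 2 had a correlation of 0.996 across genes and shared no identical value among the 78 genes. On simulated data (12782 genes, 200 of them changed, 3 against 3 arrays) the procedure recovered 29% of 2-fold and 79% of 4-fold changes. The simulated noise was independent between arrays, without slides or scan days. On the real arrays 25.9% of genes were called, so these rates need not hold there.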

Additional observations from a re-analysis of the deposited data

How the results depend on the processing

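The count of 20 lower and 1 higher ribosomal protein genes changed by more than 1.5 times under several settings. The number lower was 8 after quantile normalization (12.8% of all genes), 9 with no filter on dim probes (4.24%), 1 with slide as a random block (2.02%), 51 with scan day as a fixed block (24.0%), and 12 with quantile normalization within the shared scan day (20.8%), a setting added after seeing the data. The number higher was 0 with arrays centred on their median, with no filter and with slide as a random block, 3 with normexp and quantile normalization, and 2 with the dimmest probe of a gene and with quantile normalization within the scan day. The median difference moved to -0.21 (quantile), -0.18 (normexp with quantile) and -0.10 (quantile within the scan day). Leaving out each array gave 6 to 51 lower, 0 to 1 higher and medians of -0.63 to -0.41. The number lower was 6 without knock-in array 2, 9 without knock-in array 4, 8 without wild type array 1 or 2 and 51 without wild type array 3. The large minus small subunit median difference reversed to 0.0285 with the mean of a gene's probes.

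A replicate block, which pairs arrays by number, gave 37 lower (24.3% of all genes). It leaves 1 residual degree of freedom. Deviations of same-numbered arrays from their group means correlated at 0.17 (number 1) and -0.22 (number 2). Wild type arrays 1 and 2 were nearly alike (correlation 0.996 across genes), so this check cannot show whether the numbers pair the arrays.

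Over the 9 related lists, 31 lower and 42 higher became 19 lower (quantile), 19 and 14 (median), 15 and 16 (no filter), 2 and 3 (slide) and 72 higher (quantile within the scan day). Leaving out each array gave 13 to 39 lower and 10 to 59 higher.

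Single genes that turned sign were Rps4x (0.21 quantile, 0.13 normexp with quantile, 0.0509 replicate block, 0.29 quantile within the scan day), Rpl15 (0.28 quantile, 0.22 normexp with quantile, 0.10 mean of probes, 0.28 dimmest probe, 0.30 quantile within the scan day) and Rps25 (0.33 quantile, 0.36 normexp with quantile, 0.22 mean of probes, 0.50 dimmest probe, 0.33 quantile within the scan day). With normexp and quantile Rps26 was 0.0312 and Rpl39 0.0864. With the mean of probes Rpl35a was -0.27, Rpl13a 0.25 and Rpl14 0.0095. With the dimmest probe Rpl35a was -0.61, Rpl13a 0.81, Rpl14 0.67, Rpl17 0.12, Rpl22 0.14 and Rpsa 0.12. With scan day as a block Rpl35a was -0.0929 and Rpl32l -0.11, and with quantile normalization within the scan day Rpl22 was 0.0699. Leaving out each array gave -0.0929 to 0.18 for Rpl35a, -0.11 to 0.19 for Rpl32l, -0.35 to 0.0216 for Rps4x, -0.26 to 0.0831 for Rpl15 and -0.23 to 0.10 for Rps25. The cause of these changes was not tested.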
